A study of Mus musculus with 6 samples.

Results

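The homeobox genes of 9 patterning families, HOX, Meis, Pbx, Irx, sine oculis-related, Msx, Pitx, Dlx and Lhx, were followed between mouse embryonic stem cells (mESCs) and cardiac precursor cell cultures (CPCCs). The members are all genes whose symbol is a family name followed by a number, in the bulk gene count table of either cell type. This gave 61 genes of the 16279 that the tables list. Both tables list 35 of them, the CPCC table alone lists 19 and the mESC table alone lists 7. The members comprise 29 HOX genes, 7 Meis and Pbx genes, 5 Irx, 6 sine oculis-related, 3 Msx, 2 Pitx, 3 Dlx and 6 Lhx genes.

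The mESCs are male F1 hybrids of the strains C57BL/6 (C57BL/6J in the study's methods) and CAST/EiJ, grown in 2i medium with LIF, and the 3 lines used are single clones from separate blastocysts. The CPCCs were made from the same 3 clones through embryoid bodies and ascorbic acid, followed by passages in a medium with EGF and Fgf2, and they are mixed cultures and not a sorted cell type. Each cell type has 3 libraries, named here by their columns, S01 to S03 for mESCs and S04 to S06 for CPCCs. The columns do not say which clone a library came from. All cells share the F1 genotype and no gene was targeted.

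A homeobox is the stretch of a gene that encodes the homeodomain, a fold of 3 helices of which the third lies in the major groove of DNA and reads its bases. HOX genes lie in 4 clusters, HOXA on chromosome 6, HOXB on chromosome 11, HOXC on chromosome 15 and HOXD on chromosome 2, and their order along a cluster matches where along the head-to-tail axis they are used in the embryo, low paralog numbers in front and high numbers behind. Meis and Pbx proteins belong to the TALE class, whose homeodomain carries extra residues in a loop, and they bind DNA together with HOX proteins. In the early heart field, retinoic acid and the anterior HOX genes are known to mark the posterior part of the second heart field, and Meis, Pbx and Irx genes take part in forming the heart.

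The sequences below show the codons around the recognition helix, from GENCODE M21 transcripts on GRCm38, for HOX and TALE genes that rose and for 1 HOX gene that was high. The 6 codons in capitals start at the same conserved helix position in every gene. *Hoxa5* and *Hoxb4* are HOX genes that rose, *Hoxc13* led the posterior HOX genes, and *Meis1* and *Irx5* are TALE genes that rose.

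Hoxa5 (chr6:52202638-52202676, minus strand, exon 2 of 2): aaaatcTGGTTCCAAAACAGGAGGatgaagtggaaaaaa

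Hoxb4 (chr11:96320191-96320229, plus strand, exon 2 of 2): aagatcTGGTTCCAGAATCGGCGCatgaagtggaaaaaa

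Hoxc13 (chr15:102927345-102927383, plus strand, exon 2 of 2): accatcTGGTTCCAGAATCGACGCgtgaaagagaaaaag

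Meis1 (chromosome 11, minus strand, across exons 9 and 10 of 12): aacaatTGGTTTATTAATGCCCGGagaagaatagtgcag

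Irx5 (chr8:92359768-92359806, plus strand, exon 2 of 5): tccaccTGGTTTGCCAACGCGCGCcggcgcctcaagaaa

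Codons of this kind were found for 60 of the 61 members. The homeobox spans 180 bases in the HOX genes and 189 in the TALE genes. Over the 406 pairs of HOX members identity ran from 46.7% to 93.9%, with a median of 61.7%. *Meis1* shared 84.1% of homeobox bases with *Meis2*. Reads from such related genes may be assigned to a paralog, and how the counting treated them is not given in the sources used here.

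The libraries held 6442639 to 6907330 counts in mESCs and 8468819 to 11436062 in CPCCs, the largest being S04. The labelled cell types differed in their markers. All 8 markers of pluripotent mESCs fell, led by *Esrrb*, *Klf4* and *Zfp42*, and their summed level was 4852 to 5219 CPM in mESCs against 160.2 CPM in S04, 299.5 in S05 and 397 in S06. CPM are counts per 1000000 of the normalized library size throughout. Of 10 cardiac precursor markers 1 of the 3 tested rose (*Tnnt2*), 6 are listed for CPCCs alone and *Tbx5* for mESCs alone. Their sum was 439 CPM in S04, 131 in S05 and 148 in S06 against 3.97 to 4.68 in mESCs, most of it from the sarcomere genes *Actc1* and *Tnnt2*, while *Nkx2-5* reached 1.59 CPM in S04 and 0 in S05. Other cell type markers were present in CPCCs too. The mesenchymal or fibroblast markers summed to 6050 to 9188 CPM against 12 to 18.7 in mESCs (3 of 4 tested rose, led by *Col1a1*, *Pdgfrb* and *Thy1*, and 5 are listed for CPCCs alone). The neural markers summed to 563 to 615 CPM against 68.6 to 103.5 (4 of 6 tested rose, among them *Nes*, *Tubb3* and *Sox1*, and *Olig2* fell). The *Olig2* call was lost without S01, S02, S04, S05 or S06. S04 also stood apart within CPCCs by 40.1 CPM of *Gata6* and 3.78 CPM of *Sox1*, against 7.33 to 7.52 and 23.4 to 50.9 in S05 and S06. The part of these markers and of S04 in the results below was not tested. In bulk samples fewer cells that express a gene and less RNA per cell cannot be told apart.

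Of the 61 members, 29 passed the filter on low counts in both tables and were tested, and 6 that both tables list did not pass it (*Hoxa7*, *Hoxb7*, *Hoxc8*, *Hoxa10*, *Lhx8* and *Pitx1*). Of the 29, 14 (48.3%) rose in CPCCs, 1 (3.45%) fell and 14 were not called by edgeR's quasi-likelihood test at a Benjamini-Hochberg adjusted p of 0.05. Over all 12471 genes tested 61.4% were called, 31.7% higher and 29.7% lower. The median log2 fold change was 1.18 over the 29 members and 0.03 over all genes tested. In 15 of the 29 every CPCC library lay above every mESC library, against 35.3% of all genes, and in 1 every CPCC library lay below, against 34.5%. Outside the HOX genes 11 of 18 rose and 0 fell, with 13 of the 18 at an unadjusted p under 0.05. Within the HOX genes 3 of 11 rose and 1 fell. A member that only 1 table lists enters no test, and its fold is given as a bound against 3 counts per library in the other cell type. The CPCC table alone lists 31.1% of the members and 15.5% of all 16279 genes, and the mESC table alone 11.5% and 4.67%.

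**Figure D1:**
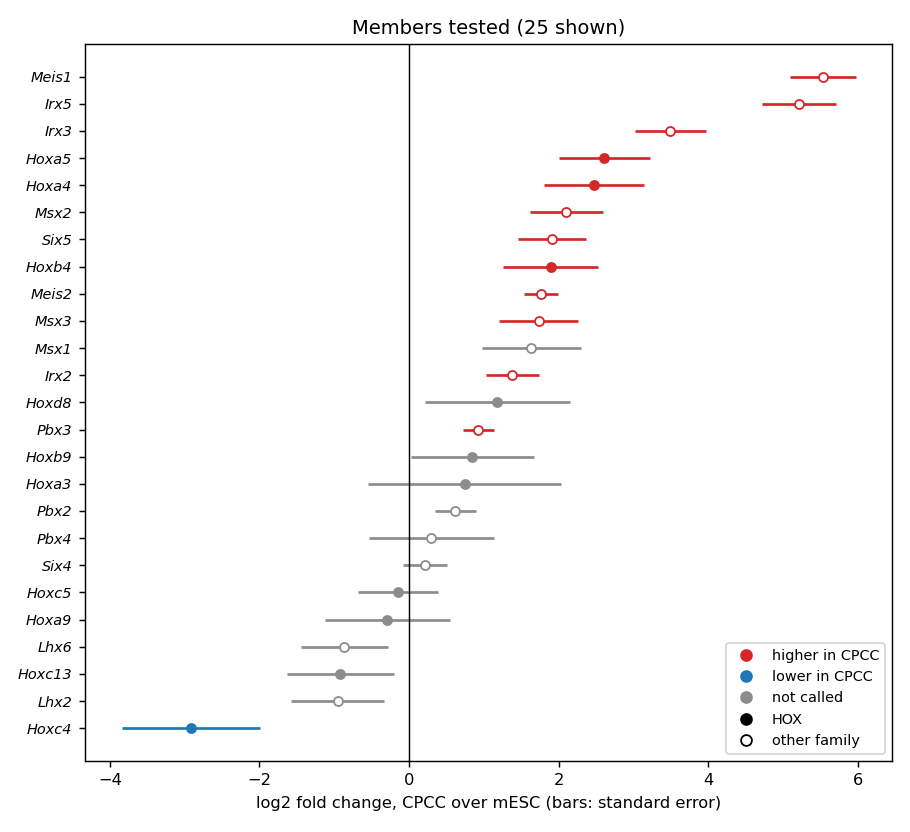
Log2 fold change of 25 tested members, CPCC over mESC, with bars for the standard error. Filled points are HOX genes and open points other families. Red marks the 12 members shown that were called higher in CPCCs, blue the 1 called lower and grey the 12 not called. Meis1 and Irx5 stand at the top and Hoxc4 at the bottom.

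The HOX genes were read by axial position, with paralog groups 1 to 3 called anterior, 4 to 8 central and 9 to 13 posterior. Of the 39 mouse HOX genes 10 are in neither table. Listing split by axial class. Of the 11 posterior genes, CPCCs list 5 and mESCs 10. The 6 HOX genes listed for mESCs alone, *Hoxb13*, *Hoxc9*, *Hoxc10*, *Hoxc12*, *Hoxd9* and *Hoxd13*, are all posterior. Of the 8 listed for CPCCs alone 5 are anterior, and the others are *Hoxb5*, *Hoxc6* and *Hoxd10*.

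Anterior genes of HOXA and HOXB, which pattern the hindbrain, its neural crest and the pharyngeal arches, appeared in the CPCC table. *Hoxb1* measured 2.58, 4.97 and 6.88 CPM in S04, S05 and S06, at least 10.7-fold above the mESC floor. *Hoxa2* measured 3.48, 5.09 and 6.65 CPM in the same libraries, at least 11.3-fold higher. *Hoxb2* was the most even, at 3.68, 4.12 and 3.44 CPM, at least 8.37-fold higher. *Hoxb3* measured 9.64 CPM in S04 but 2.67 and 2.98 CPM in S05 and S06 (at least 11.4-fold higher over the mean), so S04 held most of its level. *Hoxa3* was listed in both tables and overlapped between them, with 0, 0 and 3.51 CPM in the mESC libraries and 3.88, 1.33 and 0.688 CPM in the CPCC libraries. Its log2 fold change was 0.74 (SE 1.29, adjusted p = 0.635). It was called higher without S03 (adjusted p = 0.0246), the only mESC library with a *Hoxa3* count, where the other mESC libraries hold 0 counts and the fitted fold is no measured fold. *Hoxd3* stayed at 0 to 0.728 CPM in CPCCs, under the mESC floor on average.

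Upstream windows were found for 14 of the 29 HOX members, 15 windows in all, so the other HOX members were not searched. The 2 of these windows that hold the letters TGATNNAT, a form of the composite site for PBX and HOX proteins, belong to *Hoxa2* and *Hoxb1*, both listed in CPCCs alone. They are shown as the 250 bases before the RefSeq gene start on GRCm38, with matches to TGATNNAT or TGACAG (the MEIS core) in capitals, on either strand.

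Hoxa2 (chr6:52164832-52165081, minus strand): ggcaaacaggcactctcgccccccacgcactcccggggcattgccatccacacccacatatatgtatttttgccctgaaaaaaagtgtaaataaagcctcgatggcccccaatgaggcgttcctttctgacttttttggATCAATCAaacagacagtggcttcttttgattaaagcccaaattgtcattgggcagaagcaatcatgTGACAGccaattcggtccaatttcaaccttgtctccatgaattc

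Hoxb1 (chr11:96365508-96365757, plus strand): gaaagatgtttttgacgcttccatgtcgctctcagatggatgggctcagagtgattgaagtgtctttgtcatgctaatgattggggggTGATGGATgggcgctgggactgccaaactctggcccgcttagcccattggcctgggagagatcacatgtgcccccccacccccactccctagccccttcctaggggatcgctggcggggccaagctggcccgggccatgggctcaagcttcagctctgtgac

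A match is a run of letters and no measured site. The counts and CpG ratios here cover a longer stretch than the 250 bases shown, one that runs past the gene start. A counted match can thus lie outside the 250 bases, as TGACAG did in 1 *Lhx6* window. TGATNNAT occurs in 2 of the 15 HOX windows (13.3%) and in 2 of the 42 windows found for 37 members (4.76%). The share was 8.85% of all 32851 windows. TGACAG occurs in 9 of the 42 (21.4%) against 19.2% of all. The median ratio of observed to expected CpG was 0.718 over the members' windows and 0.384 over all.

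The central HOX genes held the 4 HOX calls. *Hoxa5*, a gene of lung, trunk and shoulder patterning, measured 0.927, 0.294 and 1.76 CPM in the mESC libraries and 5.96, 5.94 and 6.53 CPM in the CPCC libraries. The groups did not overlap, and the mean rose from 0.992 ± 0.733 to 6.15 ± 0.335 CPM (SD, n = 3 each), a log2 fold change of 2.61 (SE 0.61, adjusted p = 0.00499). Without S03 it was 3.31. *Hoxa4*, its neighbour, measured 0.154, 0.883 and 0.878 CPM in the mESC libraries and 2.78, 4.24 and 3.90 CPM in the CPCC libraries, a rise of 2.47 on the log2 scale (SE 0.67, adjusted p = 0.0104) with no overlap. The listed span of *Hoxa3* covers *Hoxa4* and *Hoxa5* on the same strand, so reads of these genes cannot be fully told apart. *Hoxb4*, known for the expansion of blood progenitors, measured 0.772, 2.21 and 3.07 CPM in the mESC libraries and 13, 5.58 and 4.01 CPM in the CPCC libraries. It rose by 1.89 (SE 0.63, adjusted p = 0.0270) with no overlap, but S04 was the highest, and without S04 the value was 1.25 (adjusted p = 0.107). The *Hoxb4* call was lost too without S01 (adjusted p = 0.0820) or S02 (adjusted p = 0.0660).

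*Hoxc4*, the HOXC paralog of *Hoxa4* and *Hoxb4*, went the other way and was the 1 member called lower. It measured 3.09, 6.33 and 2.19 CPM in the order S01 to S03 and 1.09, 0 and 0.344 CPM in S04, S05 and S06, which are 20, 43 and 15 counts against 11, 0 and 3. The log2 fold change was -2.92 (SE 0.92, adjusted p = 0.0212), with every CPCC library below every mESC library. It was -4.32 without S04, and the call was lost without S02 (-2.37, adjusted p = 0.0972) and without S06 (-2.72, adjusted p = 0.0579). *Hoxa7* also lay lower in every CPCC library, at 0.298, 0.728 and 0.802 CPM against 3.40, 2.79 and 1.32 CPM, but was removed by the filter on low counts. With no filter its log2 fold change was -2.0 (SE 0.72, adjusted p = 0.0367).

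The other central genes overlapped between the cell types or were listed in 1 table. *Hoxc5* measured 2.94, 1.62 and 2.05 CPM in the mESC libraries and 1.49, 2.43 and 2.06 CPM in the CPCC libraries (log2 fold change -0.14, SE 0.54, adjusted p = 0.829). *Hoxd8* measured 0.618, 0 and 2.63 CPM and 3.28, 2.67 and 1.49 CPM (1.18, SE 0.97, adjusted p = 0.314). *Hoxb7* measured 2.47, 0.147 and 0.731 CPM and 1.19, 0.849 and 0.688 CPM and was not tested. *Hoxb5*, listed for CPCCs alone, followed *Hoxb3* and *Hoxb4* in standing highest in S04, with 4.47 CPM against 0.970 in S05 and 1.49 in S06 (at least 5.16-fold over the mESC floor). *Hoxc8* stayed at or below 2.06 CPM in all libraries. *Hoxc6* reached 2.19 CPM in S04 and 0 in S06.

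Posterior HOX genes, which pattern the lumbar to tail region, the limbs and the genital tract, were led in both cell types by *Hoxc13*, a gene of hair and nail formation. Per kilobase of exon it had 4.31 CPM in mESCs and 2.26 CPM in CPCCs. *Hoxc13* measured 8.81, 12.1 and 11 CPM in mESCs, and 13.1 CPM in S04 but 1.70 and 1.83 CPM in S05 and S06. The groups overlapped through S04 alone. The log2 fold change was -0.92 (SE 0.71, adjusted p = 0.290) with all libraries and -2.56 (adjusted p = 0.00034) without S04. *Hoxb9* had the same outlying library, with 3.09, 2.06 and 0.878 CPM in the mESC libraries and 7.95, 1.09 and 1.72 CPM in the CPCC libraries, and its log2 fold change of 0.85 (SE 0.82, adjusted p = 0.392) turned to -0.49 without S04. *Hoxa9* measured 1.39, 0.441 and 2.19 CPM in the mESC libraries and 1.19, 0.243 and 1.83 CPM in the CPCC libraries (-0.29, SE 0.84, adjusted p = 0.783). *Hoxa10*, not tested, measured 0.927, 0.588 and 2.63 CPM and 0.895, 0.728 and 0 CPM.

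Among the posterior genes listed for mESCs alone, *Hoxc9* was the highest, at 3.86, 4.41 and 1.90 CPM in S01, S02 and S03, at least 10.1-fold above the CPCC floor. *Hoxb13* measured 0.927, 2.5 and 2.19 CPM, at least 5.59-fold higher than that floor. *Hoxd9* measured 0.772, 2.65 and 1.32 CPM and *Hoxc12* 1.08, 1.47 and 0.585 CPM. These are levels of a few to about 30 counts per library. *Hoxc10* and *Hoxd13* were lower still, with means of 0.697 and 0.847 CPM. *Hoxd10* is the posterior gene listed for CPCCs alone, with 1.69 CPM in S04, 0 in S05 and 0.344 in S06.

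**Figure D2:**
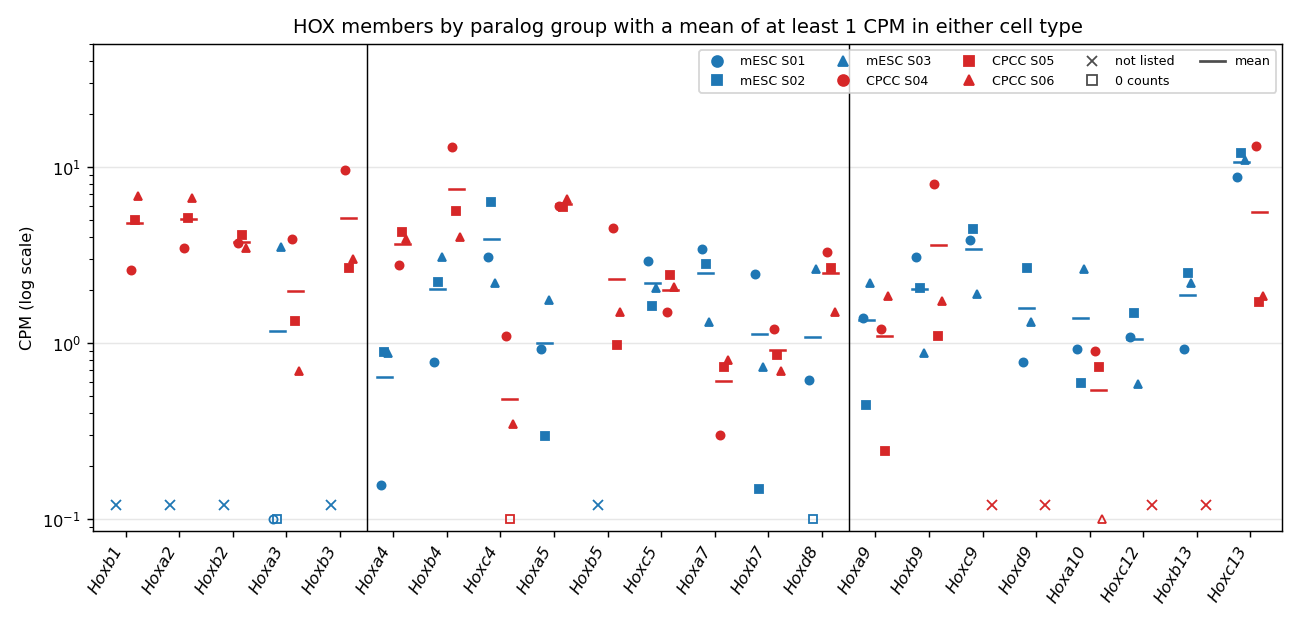
CPM on a log axis in each library for HOX members with a mean of at least 1 CPM in either cell type, ordered by paralog group, with vertical lines between the anterior, central and posterior classes. Blue marks are mESC libraries, red marks CPCC libraries and horizontal bars their means, a cross stands for a gene not listed in that table, and open symbols at 0.1 CPM stand for 0 counts. The circle of S04 stands above the other CPCC libraries for Hoxb3, Hoxb4, Hoxb5, Hoxb9 and Hoxc13.

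The central and posterior HOX genes were also summed in each library. Sums take a gene that is not listed as 0, and are given without a test. The central genes summed to 14.7, 15.2 and 15.1 CPM in the order S01 to S03 and to 36.2, 25.6 and 21.3 CPM in S04, S05 and S06, without overlap. The posterior genes went the other way in 2 of the 3 CPCC libraries, at 22.6, 27.2 and 24.6 CPM in mESCs against 3.76 CPM in S05 and 5.73 CPM in S06, while S04 held 24.9 CPM, within the mESC range. Of the 11 posterior genes 6 are not listed for CPCCs and 1 is not listed for mESCs, so the posterior contrast partly restates the listing. The CPCC mean of the posterior sum was 11.4 ± 11.7 CPM (SD, n = 3), and 4.74 CPM without S04. With the genes not listed set to 3 counts per library the posterior means would be 25.2 CPM in mESCs and 13.5 CPM in CPCCs. The central means would be 15.9 and 27.7 CPM.

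**Figure D3:**
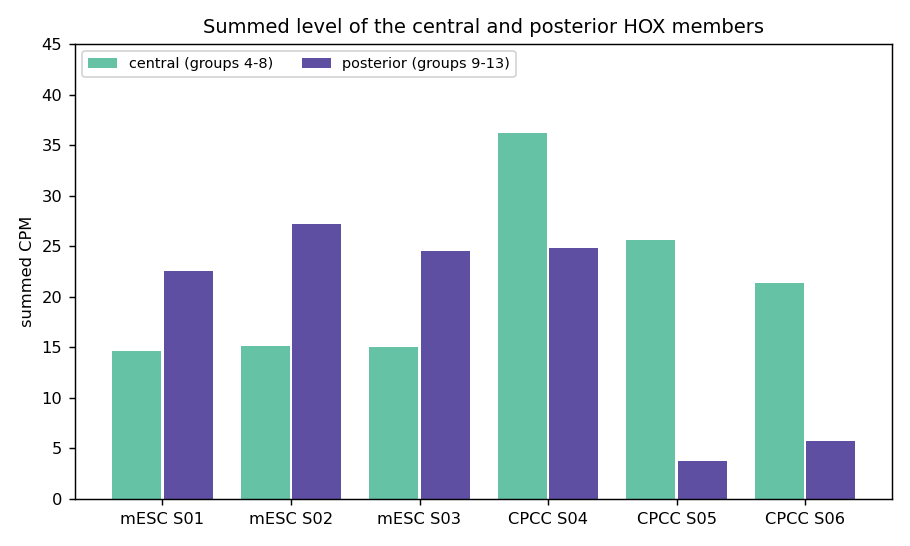
Summed CPM of the 11 central and the 11 posterior HOX members in each library, as side-by-side bars from 0. Genes not listed in a table count as 0 there. The posterior sum is 22.6 to 27.2 CPM in the mESC libraries and 24.9 CPM in S04, and under 6 CPM in S05 and S06. The central sum is 14.7 to 15.2 CPM in mESCs and 21.3 to 36.2 CPM in CPCCs.

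By cluster, the ratio of the CPCC to the mESC mean was 3.99 for HOXB and 0.430 for HOXC, and without S04 these ratios were 2.95 and 0.236. Genes not listed count as 0 here, which are 4 HOXB genes in mESCs and 1 in CPCCs, and 1 HOXC gene in mESCs and 3 in CPCCs. The ratios thus partly restate the listing. With such genes at 3 counts per library the HOXB means were 8.81 CPM in mESCs and 28.3 CPM in CPCCs. The HOXC means were then 22.8 and 10.6 CPM. HOXB summed to 6.87 to 7.26 CPM in mESCs and to 42.5, 20.3 and 21.2 CPM in S04, S05 and S06, so every CPCC library lay above. HOXC summed to 20.9, 26.9 and 19.3 CPM in mESCs and to 18.3, 6.31 and 4.24 CPM in CPCCs, so every CPCC library lay below. HOXD was low in both, at 2.32 to 4.68 CPM and 1.83 to 5.47 CPM. S04 was the highest CPCC library for 10 of the 16 central and posterior genes listed there, for 2 of the 6 anterior genes named above, for 12 of the 31 members outside HOX (38.7%) and for 38.9% of all 15519 genes of that table. S04 is also the CPCC library with the lowest pluripotency marker sum and the highest cardiac marker sum given above, and the deepest.

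With a filter of at least 10 counts in every sample 3 HOX genes were left, and edgeR called 0 of them, with 0 at an unadjusted p under 0.05, so the 4 HOX calls are of genes under 10 counts in at least 1 library.

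The Meis and Pbx genes make the cofactors of HOX proteins. Of the 6 described here 5 were tested, 3 rose and 0 fell (4 at an unadjusted p under 0.05), and *Meis3* is listed for CPCCs alone.

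*Meis1*, a partner of posterior and central HOX proteins that restrains the cell cycle of heart muscle cells, had the largest log2 fold change of the tested members (listed at chromosome 11, 18880428 to 19018969, minus strand). It measured 0.463, 1.03 and 2.49 CPM in the mESC libraries and 53.2, 65.7 and 69.2 CPM in the CPCC libraries. The log2 fold change was 5.53 (SE 0.44, adjusted p = 1.26e-05), and 6.35 without S03. *Meis2*, needed for the cardiac neural crest, started higher, at 13.9, 12.2 and 18.6 CPM, and reached 55.5, 49.8 and 46.9 CPM (log2 fold change 1.77, SE 0.23, adjusted p = 0.000179). *Meis3* measured 14.1, 14.9 and 17.8 CPM in CPCCs, at least 34.8-fold above the mESC floor. The 3 Meis genes thus lay within narrow ranges in CPCCs, with SDs of 8.43, 4.37 and 1.92 CPM. Per kilobase of exon the CPCC levels were 8.30 for *Meis1*, 11.7 for *Meis2* and 8.25 for *Meis3* in CPM.

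*Pbx3* had 19.4 CPM per kilobase of exon in mESCs and 36.9 in CPCCs. *Pbx3* measured 50.2, 46.9 and 69.0 CPM in the mESC libraries and 93.8, 102 and 120.2 CPM in the CPCC libraries (log2 fold change 0.93, SE 0.20, adjusted p = 0.00368). *Pbx2* measured 9.42, 11.9 and 13.3 CPM against 19.5, 13.9 and 19.8 CPM, without overlap, and was not called (0.62, SE 0.27, adjusted p = 0.0749). *Pbx4*, a gene of the testis, measured 0.154, 2.79 and 3.95 CPM against 1.49, 3.64 and 3.44 CPM (0.30, SE 0.83, adjusted p = 0.772).

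**Figure D4:**
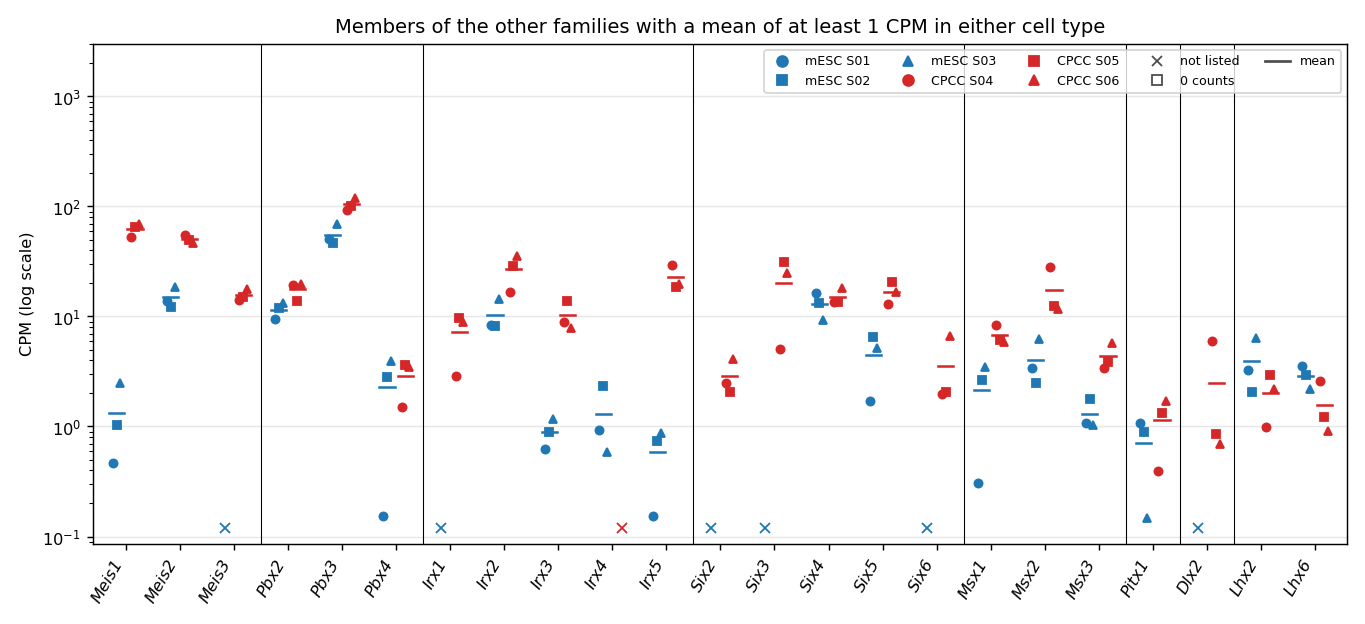
CPM on a log axis in each library for members outside HOX with a mean of at least 1 CPM in either cell type, grouped by family. Colours, bars, crosses and open symbols are as in the plot of HOX genes. The red CPCC marks lie above the blue mESC marks for Meis1, Meis2, Pbx2, Pbx3, Irx2, Irx3, Irx5, Six5 and the Msx genes, and overlap them for Six4 and the Lhx genes.

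The Irx genes, TALE transcription factors that pattern the heart chambers and the conduction system, included 3 tested members that all rose and did not overlap. *Irx5* (chromosome 8, 92357796 to 92361456, plus strand), which shapes the repolarization of the ventricle, measured 0.154, 0.735 and 0.878 CPM in the mESC libraries and 29.5, 18.7 and 19.7 CPM in the CPCC libraries (log2 fold change 5.21, SE 0.49, adjusted p = 3.19e-05). *Irx3*, a gene of fast conduction, measured 0.618, 0.883 and 1.17 CPM against 8.95, 13.8 and 7.91 CPM (3.49, SE 0.48, adjusted p = 0.000253). *Irx2* was already present in mESCs, with 8.34, 8.24 and 14.5 CPM against 16.8, 28.9 and 35.5 CPM (1.38, SE 0.35, adjusted p = 0.00811). *Irx1*, listed for CPCCs alone, was lower in S04 than in the others, at 2.88, 9.70 and 8.94 CPM, at least 16.0-fold above the mESC floor. *Irx4*, a marker of ventricle muscle, is listed for mESCs alone at 0.585 to 2.35 CPM, at least 3.84-fold above the CPCC floor.

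The sine oculis-related genes split into those present in both cell types and those listed for CPCCs alone. *Six5* measured 1.70, 6.47 and 5.12 CPM in the mESC libraries and 13, 20.5 and 16.7 CPM in the CPCC libraries, and rose by 1.91 on the log2 scale (SE 0.46, adjusted p = 0.00566). *Six4* measured 16.2, 13.4 and 9.36 CPM against 13.6, 13.6 and 18.1 CPM (0.22, SE 0.29, adjusted p = 0.541). *Six3*, a gene of forebrain and eye, was absent from the mESC table and measured 5.07, 31.0 and 24.9 CPM in S04, S05 and S06 (at least 45.4-fold above the mESC floor), with S04 the lowest as it was for *Sox1* and *Irx1*. *Six2* (2.06 to 4.13 CPM) and *Six6* (1.99 to 6.65 CPM) were lower, at least 6.46-fold and 7.96-fold above that floor.

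The Msx genes, targets of BMP signals in the limb, the neural crest and the heart cushions, lay above mESCs in every CPCC library. *Msx2* measured 3.40, 2.5 and 6.29 CPM in the mESC libraries and 28.4, 12.5 and 11.6 CPM in the CPCC libraries, and rose by 2.10 on the log2 scale (SE 0.49, adjusted p = 0.00475). *Msx3*, a gene of the dorsal neural tube, had means of 1.29 ± 0.412 and 4.33 ± 1.24 CPM (SD, n = 3 each) and rose by 1.73 (SE 0.53, adjusted p = 0.0180). Its adjusted p was 0.0611 without S01, 0.0589 without S03 and 0.0664 without S06. *Msx1* had means of 2.16 ± 1.66 and 6.75 ± 1.39 CPM and was not called by edgeR (1.64, SE 0.66, adjusted p = 0.0572), and was called by DESeq2 (adjusted p = 0.0306).

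*Pitx1*, a hindlimb gene, had means of 0.703 and 1.15 CPM and was not tested.

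Of the Dlx and Lhx families only *Lhx2* and *Lhx6* were tested, and neither was called. The Dlx genes, which pattern the pharyngeal arches and the forebrain, are listed for CPCCs alone, and *Dlx2* reached 5.96 CPM in S04 against 0.849 and 0.688 CPM in S05 and S06. *Dlx1*, which overlaps an antisense gene, and *Dlx3* stayed at or below 1.29 CPM. Of the LIM homeobox genes, *Lhx2* had means of 3.91 ± 2.26 CPM in mESCs and 2.03 ± 0.967 CPM in CPCCs (SD, n = 3 each, log2 fold change -0.95, SE 0.62, adjusted p = 0.212). *Lhx6* had means of 2.90 ± 0.681 and 1.57 ± 0.890 CPM (-0.86, SE 0.59, adjusted p = 0.227). *Lhx1*, *Lhx5*, *Lhx8* and *Lhx9* stayed at or below 1.15 CPM in every library.

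Genes that act with or around the members were counted in the same way. For comparison, 31.7% of all genes tested were higher and 29.7% lower, so counts near these shares say little about a list. Of 29 regulators of HOX clusters 26 were tested, 6 rose, 12 fell and 8 were not called, with a median log2 fold change of -0.65. The retinoic acid receptor *Rarb* rose from 0.941 ± 0.857 to 47.9 ± 16.2 CPM (SD, n = 3 each, log2 fold change 5.64, SE 0.52, adjusted p = 2.94e-05). *Wdr5*, a subunit of the complexes that methylate histone H3 at active genes, fell by 2.44 (adjusted p = 3.44e-05). *Cdx1*, a direct activator of HOX genes, fell by 5.30 (adjusted p = 5.34e-05), from 46.3 to 52.1 CPM in mESCs to 0.298 to 2.67 CPM in CPCCs. The other genes that rose were *Rara*, *Rarg*, *Gdf11*, *Kmt2a* and *Kdm6b*. Those that fell included the Polycomb repressive complex subunits *Ezh2*, *Suz12*, *Eed*, *Ezh1*, *Cbx7* and *Pcgf2*. The remaining genes that fell were *Kmt2b*, *Ash2l*, *Ctcf* and *T*. All these genes were named after their values were seen. The log2 fold changes were -1.66 for *Ezh2*, -1.71 for *Suz12* and -1.30 for *Eed*. They were -0.97 for *Kmt2b*, -1.82 for *Ash2l*, -1.20 for *Ctcf* and -3.16 for *T*, against 0.64 for *Kmt2a*. The Polycomb subunits *Bmi1*, *Rnf2*, *Ring1*, *Cbx2* and *Cbx8* of the same list were not called, with log2 fold changes from -0.82 (*Cbx2*, adjusted p = 0.0674) to 0.62 (*Bmi1*, adjusted p = 0.0619).

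Of 10 other TALE genes and HOX cofactors 8 were tested, 3 rose and 3 fell, with a median of -0.20. The number that fell was 1 without S01 and 1 without S02. *Pbxip1*, which binds Pbx proteins, rose by 2.74 on the log2 scale (adjusted p = 1.76e-05), *Mkx*, a gene of tendon, by 2.10 (adjusted p = 0.00704), and *Tgif1*, a TALE repressor, fell by 0.70 (adjusted p = 0.00795). Of 28 other homeobox genes of heart and mesoderm 8 were tested, 4 rose and 2 fell, with a median of 1.41, and 11 are listed for CPCCs alone and 3 for mESCs alone. *Prrx2*, a gene of limb and craniofacial mesenchyme, rose by 6.95 (adjusted p = 1e-05), *Zfhx3* by 2.99 (adjusted p = 1.48e-05) and *Cux1* by 1.60 (adjusted p = 9.42e-05). The cardiac homeobox genes *Nkx2-5* and *Isl1* of that list stayed at or below 2.58 CPM.

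Genes next to the HOX clusters did not share a direction. Of 15 coding neighbours 9 were tested, 2 rose and 3 fell, with a median of -0.01. *Hibadh* and *Skap2*, which lie beside HOXA, fell by 1.16 (adjusted p = 0.00057) and 1.72 (adjusted p = 0.00157), and *Snx11* beside HOXB rose by 1.52 (adjusted p = 0.00187). Of 22 noncoding RNAs of the clusters 18 are in neither table and 1 was tested. This was *Halr1*, with a log2 fold change of -1.33 (adjusted p = 0.0819), and the list held 2.32 to 7.61 CPM in mESCs and 2.52 to 2.78 CPM in CPCCs.

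The remaining marker lists bear on which cells could hold the members. Neural crest markers summed to 13.7 to 16.2 CPM in mESCs and 74.0 to 98.1 CPM in CPCCs. Much of the CPCC sum came from *Ets1*, at 85.6, 57.1 and 49.7 CPM in S04, S05 and S06. *Foxd3* and *Tfap2a*, the 2 tested, were lower in CPCCs, and 1 of these calls was lost with any 1 library left out. *Ets1*, *Tfap2b* and *Sox10* are listed for CPCCs alone, *Sox10* at no more than 0.970 CPM. Markers of paraxial mesoderm and limb summed to 13.7 to 15.1 CPM and 159 to 226 CPM, mostly from *Prrx1* and *Prrx2*. Of 3 tested *Prrx2* rose, *Tcf15* fell and *Tbx4* was not called. The *Tcf15* call was lost without S02 and without S03. Intermediate mesoderm markers summed to 0.146 to 1.18 CPM and 17 to 25.6 CPM, and none of the 4 was tested. Endoderm markers summed to 1.70 to 7.17 CPM and 31.4 to 55.3 CPM, with *Foxa2* and *Gata6*, the 2 tested, higher. The part of these markers in the differences of the members was not tested.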

How the data were processed

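Bulk polyA RNA-seq libraries (SMART-Seq v4 cDNA, Nextera XT, paired reads) were made by the authors from 3 mESC and 3 CPCC cultures. The authors deposited estimated counts per gene (values that need not be whole), not normalized, in 1 table per cell type, each listing genes with at least 10 counts over its 3 libraries. The submitters' processing notes name STAR 2.7 and mm10. The counter and its strand setting are not given in the sources used here, so antisense genes cannot be told apart.

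Counts were rounded, and genes in both tables were tested with edgeR 4.0.16 (R 4.3.3): TMM over shared genes, filterByExpr (530 genes removed), quasi-likelihood test, Benjamini-Hochberg adjusted p under 0.05 over 12471 genes, SE as the size of the log2 fold change over the root of F. DESeq2 1.42.0 was an alternative. The floor was 3 counts per library, on average 0.448 CPM in mESCs and 0.335 CPM in CPCCs, and covers counting error only. Levels per kilobase used exon unions of GENCODE M21. The fits were tested on simulated counts. Figures used matplotlib 3.10.9.

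The members, lists and tests were chosen with earlier results of these data known. Values in every library are given for HOX, Meis and Pbx members with a mean of at least 1 CPM in either cell type, members of other families with at least 10 CPM, and members called lower. Of other lists the 3 genes with the smallest adjusted p are named, and others were chosen after their values were seen. The lists are regulators of HOX clusters, other TALE genes and cofactors, other homeobox genes, neighbours and noncoding RNAs of the clusters, and markers of 8 cell types. *Pitx1* gave no homeobox codons. Results on some members and 1 marker are not reported here.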

Additional observations from a re-analysis of the deposited data

How the results depend on the processing

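The count of members called (15, of which 4 HOX) changed mainly with the genes entered. It was 8 of 14 tested, all higher in CPCCs and with 0 HOX genes, with at least 10 counts in every sample, 26 (23 higher, 3 lower, 10 of them HOX, 7 higher) with missing genes at 0 counts and 25 (22 higher, 3 lower, 10 of them HOX, 7 higher) with missing genes at 3 counts. In both fits 10 of the calls (9 higher, 1 lower) are of members that only 1 table lists, which entered through the cell type that lists them, so their direction restates the listing. The number lower, 1, was 2 with library sizes over whole tables, with no filter and with DESeq2, the second gene being *Hoxa7*. Over all genes 2430 were lower when a 2-fold change was required as well. Leaving out 1 library in turn gave 12 to 16 members called, 2 to 6 HOX genes called and 0 to 2 HOX genes lower, with 2 HOX genes called without S02. Of 355 refits of 25 single members 337 kept direction and call, 8 lost the call, 4 gained it and 6 turned direction. Those that turned were not called: with libraries left out, the log2 fold change of *Hoxa9* ran from -0.70 to 0.26, of *Hoxb9* from -0.49 to 1.29, of *Hoxc5* from -0.32 to 0.11 and of *Pbx4* from -0.25 to 0.93. *Pbx2* gained a call with at least 10 counts in every sample (adjusted p = 0.0443, edgeR). The summed central HOX level in mESCs was 14.6 CPM with library sizes over whole tables, and the posterior sum in CPCCs ran from 4.74 to 15.3 CPM with a library left out. Why these values moved was not tested beyond the genes and samples each setting enters. No paired analysis was possible because the columns carry no replicate numbers. A few counts per library limit most HOX values, and 3 libraries per cell type limit all tests.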
